A study of Mus musculus with 6 samples.

Results

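Transcription factors that set or mark mesenchymal identity were followed as 10 genes chosen by symbol, Tcf21, Foxf1, Tbx4, Tbx5, Prrx1, Twist1, Snai1, Snai2, Zeb1 and Runx1, of the 55364 genes listed in the count files. All 10 had reads in every library and all 10 passed the filter on low counts. They were measured by Quant-Seq, a method that reads each mRNA next to its poly(A) tail, so that 1 transcript gives reads at its 3′ end only. The cells were primary mouse lung fibroblasts (LFs), the matrix-producing cells of the lung, in 3 libraries of wt LFs and 3 labelled TKS5 KO. All of them were kept in serum-free medium with 10 ng/ml TGF-β1 for 24 h, which turns LFs into contractile myofibroblasts. No library without TGF-β1 was analysed here, so the comparison is between genotypes under TGF-β1 and not of the response to it. The labels give the second genotype as a knockout, the study names it Tks5+/-, and the study recovered no homozygous mice. The study's methods give adult C57Bl6/J mice as the source of primary LFs, littermates as the experimental groups and cells at an early passage, but neither they nor the labels say whether replicates are separate mice or cultures. The p-values below therefore measure the spread between these libraries, which may be technical. TKS5, encoded by Sh3pxd2a, is a scaffold protein of podosomes, the actin structures with which cells degrade matrix.

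These factors share a domain of work rather than a protein family. Foxf1 (forkhead), Tbx4 and Tbx5 (T-box) and Tcf21 (basic helix-loop-helix) are genes of the embryonic lung mesenchyme, where Foxf1 answers hedgehog signals from the epithelium and Tbx4 and Tbx5 act upstream of the ligand Fgf10 in lung bud growth. Twist1, Snai1, Snai2 and Zeb1 are the classical inducers of epithelial-to-mesenchymal transition (EMT), in which epithelial genes such as Cdh1 are repressed through short E-box sequences. Prrx1 is a homeobox gene of mesenchyme, and Runx1 a runt-domain factor that binds DNA with its partner Cbfb.

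The depth ran from 1344507 to 2369882 counts per library. Of 10346 genes tested with edgeR's quasi-likelihood test, 4642 were called, which is 44.9% of them, where a call needed a Benjamini-Hochberg adjusted p under 0.05 together with a change of 1.2-fold or more. Every adjusted p given here comes from that test over all genes or, where an alternative is named, from its repeat under that alternative, and every log2 fold change is TKS5 KO against wt, with its standard error (SE). Levels are given as CPM, counts scaled to a common total by TMM-scaled library sizes. The targeted gene Sh3pxd2a was not lower in the libraries labelled TKS5 KO. It had 132, 102 and 105 CPM in wt replicates 1, 2 and 3 and 131, 151 and 133 CPM in the TKS5 KO replicates, a log2 fold change of 0.29 (95% interval -0.13 to 0.71, adjusted p = 0.249). These are counts per gene that do not separate exons, so they do not check the deletion itself, and every direction below rests on the labels. Fibroblast markers were high throughout, at a summed level of 3644 to 4781 CPM in wt and 5068 to 7996 CPM in TKS5 KO. Of 8 tested, 3 were higher and 1 lower, with a median log2 fold change of 0.42. Leukocyte markers stood apart in wt replicate 3, with 1900 CPM summed against 360 and 307 CPM in the other two wt libraries and 124 to 140 CPM in TKS5 KO, and 4 of 8 tested were lower. Endothelial markers summed to 121 to 161 CPM in wt and 45.6 to 60.9 CPM in TKS5 KO, with 4 of 5 tested lower and Pecam1 at 0 counts in all TKS5 KO libraries. Mesothelial markers summed to 37.3 to 56.7 CPM in wt and 5.12 to 15.4 CPM in TKS5 KO, with 3 of 3 tested lower. Of 8 smooth muscle and pericyte markers tested, 3 were higher and 4 lower, and lung epithelial markers summed to 14.4 to 36.3 CPM in wt and 29.2 to 60.3 CPM in TKS5 KO. Of the 10 epithelial markers, 6 had 0 counts in every library, among them Sftpc, Sftpb, Nkx2-1 and Scgb1a1. The single one tested, Ager, was higher, at 12.9, 9.63 and 13 CPM in wt and 37.3, 60.3 and 29.2 CPM in TKS5 KO (log2 fold change 1.82, adjusted p = 4.53e-05). In TKS5 KO, 9 of the 10 had 0 counts in every library, so the sums there are those of Ager alone. Cdh1 and Epcam, also on this list, went the other way. They had 17, 8 and 58 counts and 2, 1 and 3 counts in wt, and 0 in every TKS5 KO library. Xist had 0 counts in every library. The Y-linked gene Ddx3y fell from 94, 85.1 and 77.9 CPM in wt to 13.7, 11.1 and 10.7 CPM in TKS5 KO. Nnt, a gene that differs between C57BL/6 substrains, fell from 30.3, 47.6 and 39.7 CPM to 19.8, 10.5 and 9.72 CPM. The 6 sex and strain genes were Xist, Nnt and the Y-linked Ddx3y, Eif2s3y, Kdm5d and Uty, and 3 of them were tested. Of these, 2 were called lower, Ddx3y and Nnt, and 1 was not called, another Y-linked gene. The fall of Ddx3y was therefore not shared by every Y-linked gene tested. In bulk RNA, fewer cells of a type and less RNA per cell cannot be told apart, and the part of these cells, of sex and of strain in the results below was not tested.

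Of the 10 factors, 5 rose in TKS5 KO (Twist1, Tcf21, Snai2, Prrx1 and Snai1), 3 fell (Tbx5, Zeb1 and Runx1), and Foxf1 and Tbx4 did not pass the test. Over all genes tested, 22.8% were called higher and 22.1% called lower. The median log2 fold change of the 10 factors was 0.64, beside -0.05 over all genes tested. The levels of both groups did not overlap for 7 of the 10 factors, beside 53.8% of all genes tested. The EMT inducers did not move as 1 group, since Twist1, Snai1 and Snai2 were higher and Zeb1 lower.

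**Figure D1:**
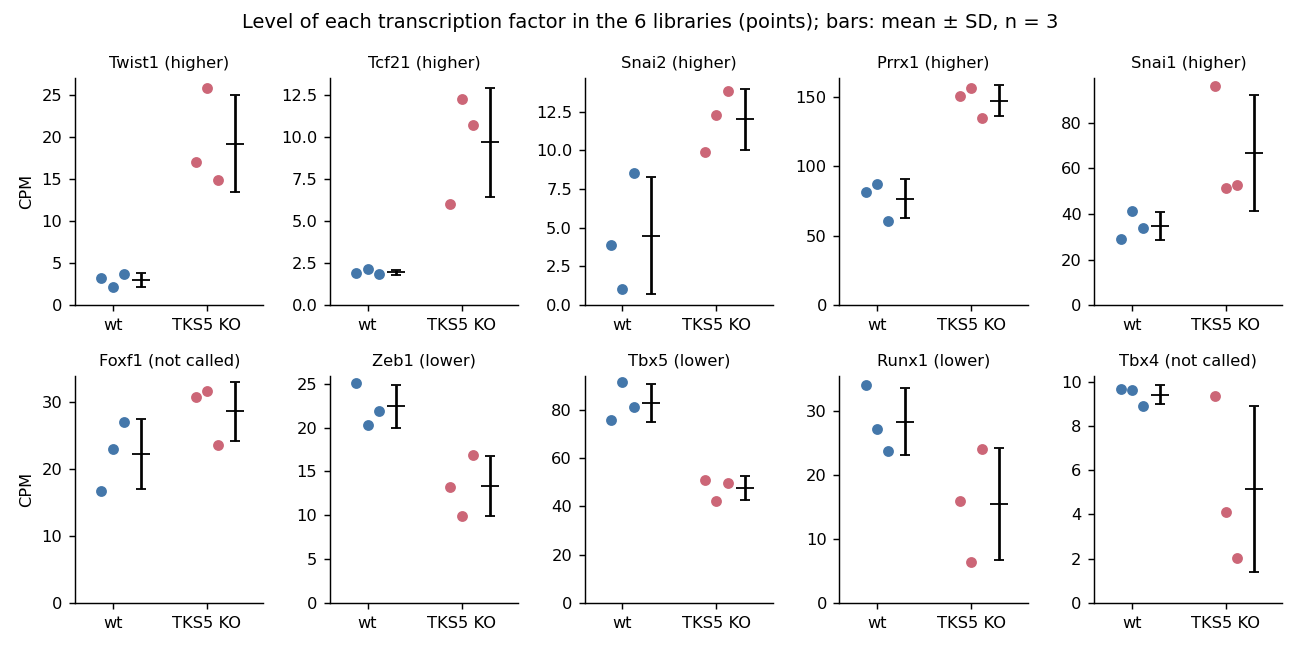
Level of each factor in CPM on the vertical axis, which starts at 0, for the 3 wt and 3 TKS5 KO libraries (points, replicates 1 to 3 from left to right), with the mean and SD beside them (n = 3). Twist1 lay at 2.14 to 3.71 CPM in wt and 14.8 to 25.7 CPM in TKS5 KO, while the Foxf1, Tbx4 and Runx1 groups overlapped.

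Twist1 (ENSMUSG00000035799, chr12:33957671-33959829), a basic helix-loop-helix factor that binds DNA as a dimer with E-proteins, had the largest log2 fold change of the 10. Reads were few in wt, with 5, 4 and 10 counts in replicates 1, 2 and 3, against 31, 44 and 29 in the TKS5 KO libraries. On the CPM scale this was 3.22, 2.14 and 3.71 in wt, a mean of 3.02 ± 0.802 (SD, n = 3), and 17, 25.7 and 14.8 in TKS5 KO, a mean of 19.2 ± 5.77 (SD, n = 3). The lowest TKS5 KO library lay above the highest wt library, with a ratio of mean CPM of 6.35. At a log2 fold change of 2.61 (SE 0.41, adjusted p = 2.43e-05), Twist1 was called in all 19 alternatives in which it was tested, with values from 2.19 to 2.91. At most 10 wt counts in any library stand behind that size.

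Tcf21 (ENSMUSG00000045680, chr10:22817281-22820174), which marks lipid-storing fibroblasts of the alveolar wall, changed in the same direction. It had 3, 4 and 5 counts in wt and 11, 21 and 21 in TKS5 KO. Its wt libraries were close together at 1.93, 2.14 and 1.85 CPM (mean 1.98 ± 0.148, SD, n = 3), and its TKS5 KO libraries spread wider at 6.04, 12.3 and 10.7 CPM (mean 9.69 ± 3.26, SD, n = 3). Even the lowest TKS5 KO library, replicate 1, was above all wt libraries. The log2 fold change of 2.26 (SE 0.50, adjusted p = 0.000802) was called in each of 19 alternatives, over values from 1.84 to 2.56. An antisense gene at the same end, Gm10824, had at most 1 count in any library.

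Prrx1 (ENSMUSG00000026586, chr1:163245119-163313710) was higher in TKS5 KO with little spread in either group. Counts were 127, 163 and 164 in wt and 274, 267 and 263 in TKS5 KO, or 81.7, 87.2 and 60.8 CPM (mean 76.6 ± 13.9, SD, n = 3) against 150.4, 156 and 135 CPM (mean 147 ± 11.2, SD, n = 3). The groups did not overlap, and the lowest wt library was replicate 3. Prrx1 had a log2 fold change of 0.95 (SE 0.21, adjusted p = 0.000903), called in all 20 alternatives with values from 0.53 to 1.42.

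The Snail genes encode zinc-finger repressors, and both were called higher. Snai1 (ENSMUSG00000042821, chr2:167538195-167542814) had 45, 77 and 91 counts in wt and 175, 88 and 103 in TKS5 KO. Its levels were 29, 41.2 and 33.7 CPM in wt (mean 34.6 ± 6.17, SD, n = 3) and 96, 51.5 and 52.7 CPM in TKS5 KO (mean 66.7 ± 25.4, SD, n = 3), so that replicate 1 of TKS5 KO stood well above the other two. The other two TKS5 KO libraries were still above the highest wt library. For Snai1 the change was 0.94 on the log2 scale (SE 0.26, adjusted p = 0.00494) and remained called when any single library was left out, from 0.64 to 1.12. It was called in 17 of 20 alternatives. The call was lost with scaling by library totals (0.54, adjusted p = 0.105) and with a correction for transcript length (0.63, adjusted p = 0.0616). It was also lost with the length correction and a replicate block together (0.56, adjusted p = 0.0893). Snai1 was called when GC content was corrected beside length (1.04, adjusted p = 0.00171).

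Snai2 (ENSMUSG00000022676, chr16:14705852-14709385) rested on fewer reads, with 6, 2 and 23 counts in wt and 18, 21 and 27 in TKS5 KO. The wt libraries were spread over 3.86, 1.07 and 8.53 CPM (mean 4.49 ± 3.77, SD, n = 3), while TKS5 KO held 9.88, 12.3 and 13.8 CPM (mean 12 ± 1.99, SD, n = 3). The highest wt library, replicate 3, is the one with the high leukocyte markers, and it lay just under the lowest TKS5 KO library. This was a log2 fold change of 1.31 (SE 0.47, adjusted p = 0.0286). It ran from 0.87 to 2.31 with 1 library left out, and was called in 2 of those 6 analyses, without wt replicate 3 (2.31, adjusted p = 0.00195) and without TKS5 KO replicate 1 (1.49, adjusted p = 0.0359). The call was lost without wt replicate 2 (0.87, adjusted p = 0.147), and also without wt replicate 1 (adjusted p = 0.0808), TKS5 KO replicate 2 (1.33, adjusted p = 0.0652) or TKS5 KO replicate 3 (1.23, adjusted p = 0.0824). Snai2 was called in 12 of the 19 alternatives in which it was tested. Library totals as the scaling (0.89, adjusted p = 0.128) and length and GC correction (0.90, adjusted p = 0.134) also lost the call.

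**Figure D2:**
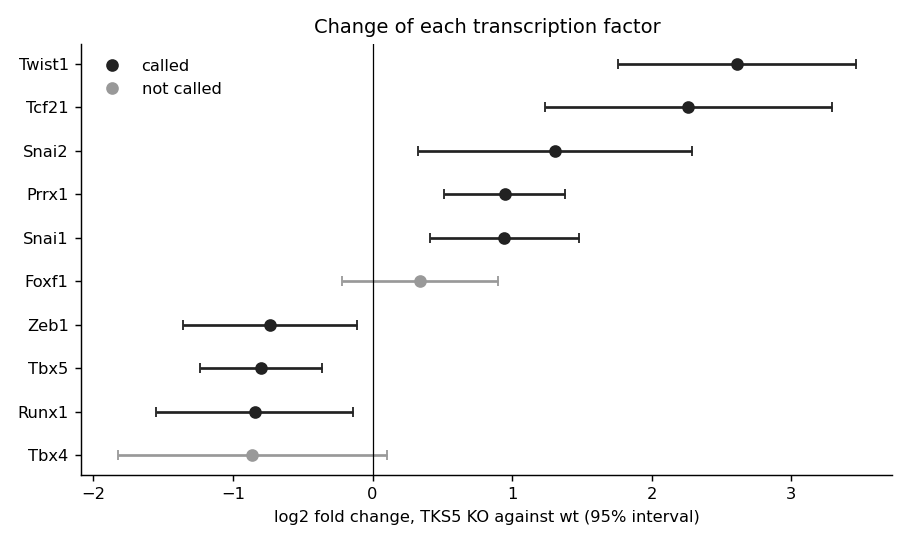
Log2 fold change of each factor, TKS5 KO against wt, on the horizontal axis, with its 95% interval from edgeR's quasi-likelihood fit (n = 3 libraries per group). Dark points were called and grey points were not; Twist1 and Tcf21 lie above 2 and the intervals of Foxf1 and Tbx4 include 0.

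Tbx5 (ENSMUSG00000018263, chr5:119832668-119885219) fell. It had 118, 171 and 219 counts in wt and 93, 72 and 97 in TKS5 KO, at 75.9, 91.5 and 81.2 CPM (mean 82.9 ± 7.91, SD, n = 3) and 51, 42.1 and 49.6 CPM (mean 47.6 ± 4.79, SD, n = 3). All 3 TKS5 KO libraries lay below all 3 wt libraries. Its log2 fold change of -0.80 (SE 0.21, adjusted p = 0.00399) was called in all 20 alternatives over values from -1.21 to -0.63.

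Tbx4 (ENSMUSG00000000094, chr11:85886422-85916097), its close relative in lung and limb development, did not pass the test. Its counts were 15, 18 and 24 in wt and 17, 7 and 4 in TKS5 KO, and its levels 9.65, 9.63 and 8.90 CPM (mean 9.39 ± 0.43, SD, n = 3) and 9.33, 4.10 and 2.05 CPM (mean 5.16 ± 3.76, SD, n = 3). In wt the 3 values were nearly alike, and in TKS5 KO replicate 1 was at the wt level while replicates 2 and 3 were lower. The log2 fold change of -0.86 (95% interval -1.82 to 0.10, adjusted p = 0.136) therefore turned on TKS5 KO replicate 1, without which it was -1.56 (adjusted p = 0.0224), and on TKS5 KO replicate 3, without which it was -0.44 (adjusted p = 0.474). The ratio of Tbx4 to Tbx5 within a library differed between groups by -0.27 on the log2 scale (exact two-sided permutation test, p = 0.7, where 3 libraries against 3 allow no p below 0.1).

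Zeb1 (ENSMUSG00000024238), a zinc-finger and homeodomain repressor of Cdh1, lay at the edge of the threshold. Its counts were 39, 38 and 59 in wt and 24, 17 and 33 in TKS5 KO, or 25.1, 20.3 and 21.9 CPM (mean 22.4 ± 2.43, SD, n = 3) and 13.2, 9.95 and 16.9 CPM (mean 13.3 ± 3.47, SD, n = 3). Although the groups did not overlap, the log2 fold change of -0.74 (SE 0.30) had an adjusted p of 0.0497. It was called in 8 of 20 alternatives and in 1 of the 6 analyses that left out a library, without TKS5 KO replicate 3 (-0.91, adjusted p = 0.041). Leaving out any of the other 5 libraries gave -0.80 to -0.54 and adjusted p from 0.0797 to 0.193. Correction for transcript length gave -0.34 (adjusted p = 0.389).

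Runx1 (ENSMUSG00000022952, chr16:92601466-92826149) was close to the threshold as well, with overlapping groups. There were 53, 51 and 64 counts in wt and 29, 11 and 47 in TKS5 KO, or 34.1, 27.3 and 23.7 CPM (mean 28.4 ± 5.28, SD, n = 3) and 15.9, 6.44 and 24.1 CPM (mean 15.5 ± 8.82, SD, n = 3). TKS5 KO replicate 3 was slightly above wt replicate 3, and TKS5 KO replicate 2 was far below all others. The log2 fold change was -0.85 (SE 0.34, adjusted p = 0.0477), called in 11 of 20 alternatives. Without TKS5 KO replicate 2 it was -0.46 (adjusted p = 0.26), and without wt replicate 1 it was -0.70 (adjusted p = 0.158). The call was also lost without wt replicate 2 (-0.87, adjusted p = 0.0838) and without TKS5 KO replicate 1 (-0.80, adjusted p = 0.126). Runx1 is also a blood-cell factor, and the part of leukocyte reads in its level was not tested.

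Foxf1 (ENSMUSG00000042812, chr8:121084386-121088144) did not pass the test, with 26, 43 and 73 counts in wt and 56, 54 and 46 in TKS5 KO. Its levels of 16.7, 23 and 27.1 CPM in wt (mean 22.3 ± 5.21, SD, n = 3) and 30.7, 31.6 and 23.5 CPM in TKS5 KO (mean 28.6 ± 4.42, SD, n = 3) overlapped, for a log2 fold change of 0.34 (95% interval -0.22 to 0.90, adjusted p = 0.318). It was called in none of 20 alternatives, and with library totals as the scaling the value was -0.08. Its count is uncertain, because the protein-coding gene model Gm20388 covers the same end on the same strand and took 193, 212 and 320 counts in wt and 447, 388 and 314 in TKS5 KO.

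The length of the transcript moved with the fold change in these libraries. Over 10339 genes tested, the rank correlation (Spearman's rho across genes, not independent replicates) of the log2 fold change with the longest annotated transcript was -0.397. The median longest transcript was 1959 bases for genes called higher and 4175 bases for genes called lower. Among the factors, Snai1 (1621 bases), Twist1 (1628), Tcf21 (1788), Snai2 (2021) and Foxf1 (2415) had positive log2 fold changes, and Tbx4 (3153), Tbx5 (3942), Zeb1 (5801) and Runx1 (5861) negative ones. Prrx1 is the exception, with the longest transcript of the 10 (6527 bases) and a higher level in TKS5 KO. After each library was corrected for its trend with length, Twist1, Tcf21, Prrx1 and Tbx5 were still called and the other 6 factors were not. Snai2 stayed near its size (1.11, adjusted p = 0.0652) and Snai1 was 0.63, while Zeb1 came to -0.34 and Runx1 to -0.44 (adjusted p = 0.308).

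**Figure D3:**
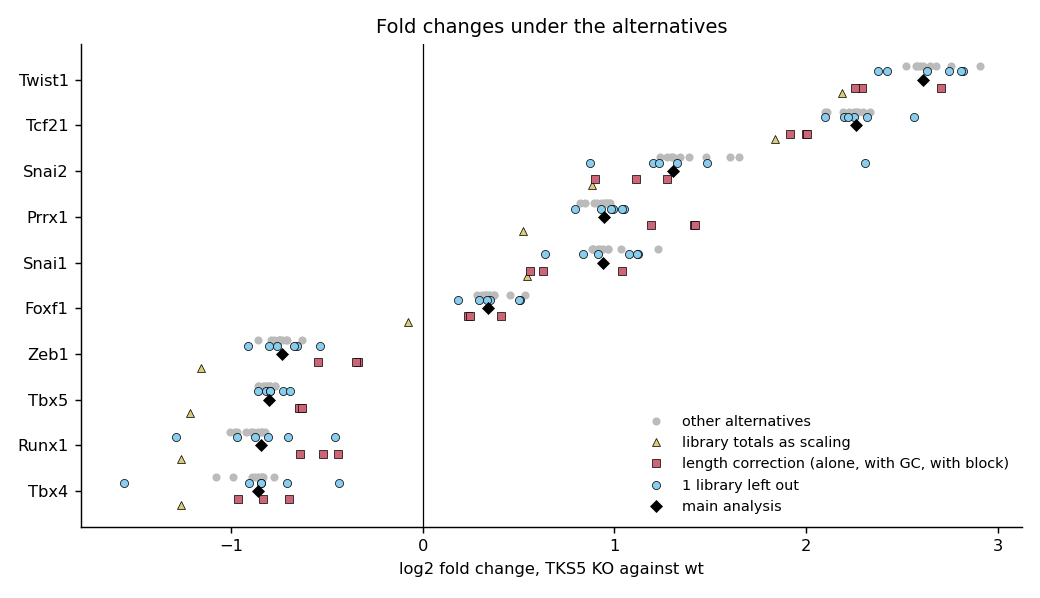
Log2 fold change of each factor (horizontal axis) in the main analysis (diamond), with 1 library left out (blue circles), with the length corrections (squares), with scaling by library totals (triangle) and in the other alternatives (grey). Every value of Twist1, Tcf21, Snai2, Prrx1 and Snai1 is above 0, every value of Zeb1, Tbx5, Runx1 and Tbx4 below 0, and Foxf1 crosses 0 with library totals.

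The regions upstream of the transcription starts were read from RefSeq on GRCm38.p6 for 6 of the 10 members. Foxf1, Tbx5 and Snai2 had no promoter entry there, and Zeb1 was left out beforehand. Windows of 250 bases before to 50 bases after each start were searched on both strands for 7 motifs. These were the E-box of Snail, Zeb and E-proteins, written CAGGTG, another E-box written CAGCTG and 1 more written CATATG. The Runx motif was written TGTGGT, the Smad half-site was written CAGAC, the forkhead motif was written TGTTTAC and the motif of T-box factors was written AGGTGTGA. The first E-box and the motif of T-box factors can overlap, and each was counted on its own. CAGAC stood in the windows of Twist1, Tcf21 and Prrx1, and among all 32851 promoters searched 49.6% held it. The upstream stretches of these 3 factors, which rose in every alternative tested, follow with matches in capitals: Twist1 at chr12:33957421-33957670 on the forward strand, and Tcf21 at chr10:22820144-22820393 and Prrx1 at chr1:163313651-163313900 on the reverse strand.
Twist1: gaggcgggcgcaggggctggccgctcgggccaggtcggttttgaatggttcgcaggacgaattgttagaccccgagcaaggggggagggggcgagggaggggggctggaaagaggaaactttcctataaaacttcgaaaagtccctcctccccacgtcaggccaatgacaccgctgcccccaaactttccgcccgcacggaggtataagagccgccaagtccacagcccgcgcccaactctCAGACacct
Tcf21: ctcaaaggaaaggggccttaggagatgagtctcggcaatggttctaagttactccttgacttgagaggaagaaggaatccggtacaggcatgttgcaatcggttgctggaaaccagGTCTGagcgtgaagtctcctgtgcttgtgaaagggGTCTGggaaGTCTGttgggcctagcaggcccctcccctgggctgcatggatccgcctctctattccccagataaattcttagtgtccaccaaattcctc
Prrx1: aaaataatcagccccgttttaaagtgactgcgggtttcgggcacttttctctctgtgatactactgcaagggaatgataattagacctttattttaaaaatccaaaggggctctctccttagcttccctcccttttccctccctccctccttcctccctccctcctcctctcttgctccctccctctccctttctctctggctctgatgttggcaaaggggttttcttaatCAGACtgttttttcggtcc
Tcf21 held 3 matches, Twist1 held 1, and Prrx1 held 1 upstream and 1 past the start, outside the stretch printed. A match is a string of letters and was not tested as a bound site.

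The Snail and Zeb E-box CAGGTG stood in the windows of Snai1, which rose, and of the distal start of Runx1, which fell, and in 20.2% of all promoters. Their upstream stretches are shown because Snai1 encodes a repressor that binds this E-box: Snai1 at chr2:167537945-167538194 on the forward strand and Runx1 at chr16:92826075-92826324 on the reverse strand.
Snai1: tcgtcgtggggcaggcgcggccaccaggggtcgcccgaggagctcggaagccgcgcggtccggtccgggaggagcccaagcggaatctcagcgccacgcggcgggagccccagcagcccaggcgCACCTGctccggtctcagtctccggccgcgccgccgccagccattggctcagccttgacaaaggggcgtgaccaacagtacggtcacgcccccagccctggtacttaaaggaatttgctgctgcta
Runx1: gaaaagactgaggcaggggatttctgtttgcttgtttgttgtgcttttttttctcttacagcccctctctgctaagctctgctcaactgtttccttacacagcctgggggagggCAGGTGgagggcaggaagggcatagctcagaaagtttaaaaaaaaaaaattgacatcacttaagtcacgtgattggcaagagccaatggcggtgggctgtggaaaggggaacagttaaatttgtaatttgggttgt
The distal Runx1 window also held 2 matches to TGTGGT past the start, a string found in 16.8% of all promoters, and its other start held none of the motifs. Tbx4 held 1 CAGCTG, which 16.3% of all promoters had. The E-box CATATG (in 3.92% of all promoters), the T-box motif (1.28%) and the forkhead motif (3.65%) had no match in the windows of these 6 factors.

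The closest relatives of the factors were compared next, as a list of 16 genes of which 7 passed the filter on low counts. Of these, Prrx2 and Twist2 rose, Zeb2 fell, and 4 did not pass the test, with a median log2 fold change of 0.35. That is 42.9% called, beside 44.9% of all genes tested. Prrx2, the second Prrx homeobox gene, went from 15.4, 18.7 and 13 CPM in wt to 34.6, 53.2 and 37.4 CPM in TKS5 KO (log2 fold change 1.41, SE 0.27, adjusted p = 0.000232). Twist2 went from 20.6, 22.5 and 24.8 CPM to 38.4, 40.4 and 46.6 CPM (log2 fold change 0.88, SE 0.24, adjusted p = 0.00536). Zeb2, the paralog of Zeb1, fell from 34.8, 26.2 and 26.3 CPM to 20.9, 12.9 and 16.4 CPM (log2 fold change -0.79, SE 0.28, adjusted p = 0.0263), but was -0.16 (adjusted p = 0.663) with length correction and called in 13 of 20 alternatives. Its call was lost without wt replicate 1, TKS5 KO replicate 2 or TKS5 KO replicate 3. Both Twist and both Prrx genes were therefore called higher and both Zeb genes lower.

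Within each library, the log2 ratio of Twist1 to Twist2 was higher in TKS5 KO by 1.68, and the ratio of Runx1 to Runx2 was lower (difference -1.21). For both ratios the groups did not overlap and the exact two-sided permutation test gave p = 0.1, the smallest that 3 libraries against 3 allow. The ratio of Prrx1 to Prrx2 moved by -0.43, and its groups did not overlap either (p = 0.1 by the same exact test). Snai1 to Snai2 moved by -0.84 (exact p = 0.6), Foxf1 to Foxf2 by -0.19 (exact p = 0.8) and Zeb1 to Zeb2 by 0.04 (exact p = 0.9). These are 7 ratios with that of Tbx4 to Tbx5, and none can fall under 0.05 in this design, adjusted or not.

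**Figure D4:**
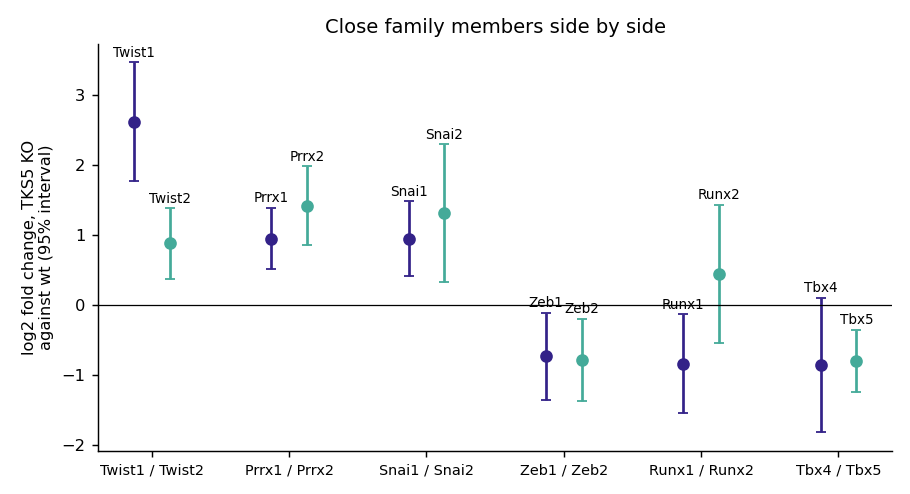
Log2 fold change (vertical axis, TKS5 KO against wt) with its 95% interval for pairs of close relatives, n = 3 libraries per group. Twist1 (2.61) lies above Twist2 (0.88), and the Zeb1 and Zeb2 values (-0.74 and -0.79) are side by side.

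Partners and inhibitors of the helix-loop-helix factors and Runx1 were a list of 8 genes, all tested. Of these, 4 rose and none fell in the main test, with a median of 0.75. So 50% were called, beside 44.9% of all genes tested. The 3 with the smallest adjusted p were Id genes, which encode helix-loop-helix proteins without a DNA-binding region that sequester E-proteins from partners such as Twist1 and Tcf21. Id3 had 144, 119 and 63.8 CPM in wt and 1106, 1345 and 1044 CPM in TKS5 KO (log2 fold change 3.43, SE 0.27, adjusted p = 4.94e-09). Id1 had 20.6, 15 and 27.8 CPM and 67.5, 68.5 and 91.6 CPM (log2 fold change 1.82, adjusted p = 5.69e-06), and Id2 had 61.1, 48.2 and 132 CPM and 204, 279 and 336 CPM (log2 fold change 1.74, adjusted p = 0.000862). Id4, the remaining Id gene, did not pass the test (log2 fold change 0.07, adjusted p = 0.914). In the 3 that rose the groups did not overlap, and wt replicate 3 was the highest wt library for Id1 and Id2 and the lowest for Id3. The fourth was Cbfb, the partner of Runx1, at 30.9, 37.5 and 27.4 CPM and 47.2, 66.7 and 66 CPM (log2 fold change 0.91, adjusted p = 0.00314), in the opposite direction to Runx1. The E-protein genes Tcf3 (log2 fold change 0.58), Tcf4 (-0.36) and Tcf12 (0.11) did not pass the test.

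Other transcription factors of lung mesenchyme were a list of 42 genes, 37 of them tested. Of these, 9 rose, 10 fell and 18 did not pass the test, with a median log2 fold change of -0.18. The share called was 51.4%, beside 44.9% of all genes tested. The 3 with the smallest adjusted p were Hox genes, which give position along the body axis. Hoxa5, a regulator of lung patterning, had 82.4, 82.4 and 50.4 CPM in wt and 309, 336 and 248 CPM in TKS5 KO (log2 fold change 2.06, SE 0.23, adjusted p = 3.76e-07). Hoxa2 (7.08, 4.28 and 7.04 CPM and 23.6, 33.4 and 23 CPM, log2 fold change 2.10, adjusted p = 2.98e-05) and Hoxa4 (38.6, 34.2 and 39.3 CPM and 84.5, 128 and 86.5 CPM, log2 fold change 1.41, adjusted p = 3.40e-05) were higher as well. Of the 9 Hox genes on the list 7 rose, while Hoxb4 (0.16) and Hoxb5 (0.19) did not pass the test. Among the 10 that fell, chosen here after their values were seen, were Osr1 (52.1, 44.4 and 21.9 CPM and 8.78, 10.5 and 10.2 CPM, log2 fold change -1.97, adjusted p = 4.48e-05), Klf4 (log2 fold change -1.70, adjusted p = 0.000116) and Ebf1 (log2 fold change -2.25, adjusted p = 0.00187). With library totals as the scaling, 5 of the list were called higher and 16 lower, and with the length correction 11 were called higher and 4 lower.

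The hedgehog pathway and lung bud ligands, which lie upstream or downstream of Foxf1, Tbx4 and Tbx5, were 15 genes. Of these, 9 were tested, with 1 higher, 2 lower and a median of -0.41. The share called was 33.3%, beside 44.9% of all genes tested. Fgf10, a growth factor for the lung bud epithelium, fell from 20.6, 19.8 and 15.9 CPM to 7.68, 5.27 and 7.16 CPM (log2 fold change -1.46, SE 0.34, adjusted p = 0.00152). Bmp4, a ligand of the TGF-β superfamily, fell from 16.1, 34.8 and 10.4 CPM to 2.74, 3.51 and 2.56 CPM (log2 fold change -2.76, SE 0.48, adjusted p = 7.73e-05), with a smaller value of -2.13 without wt replicate 2, its highest library. Fgf7, a growth factor for alveolar epithelium, rose from 18, 23 and 19.3 CPM to 34, 46.2 and 45 CPM (log2 fold change 1.05, SE 0.25, adjusted p = 0.0018). The hedgehog receptor and mediator genes Ptch1, Smo, Sufu and Gli2 did not pass the test, with log2 fold changes from -0.55 to 0.89. Smo was just outside the threshold (log2 fold change 0.89, adjusted p = 0.0516), with groups that did not overlap, and was called in 9 of 20 alternatives. Gli1 had 0, 2 and 7 counts in wt and 0 in every TKS5 KO library and was below the filter. Wnt2 had 8, 10 and 9 counts in wt and 1, 2 and 2 in TKS5 KO and was below the filter.

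Epithelial genes that the EMT inducers repress had few reads, and 5 of 18 passed the filter on low counts. Of these, 4 were lower in TKS5 KO and none higher, with a median of -1.51. That is 80% of only 5 genes, beside 44.9% of all genes tested. Cdh1, encoding E-cadherin, had 17, 8 and 58 counts in wt and 0 in every TKS5 KO library, at least 7.44-fold lower when each TKS5 KO library is set to the 3 counts that a count of 0 allows. It was not tested, and 58 of its wt counts came from wt replicate 3. Epcam had 2, 1 and 3 counts in wt and 0 in every TKS5 KO library, too few for a fold. Cldn4 (a tight junction protein) had 23, 15 and 50 counts in wt and 0, 3 and 0 in TKS5 KO (adjusted p = 2.13e-05), and Krt18 (a keratin) had 9, 11 and 31 and 0, 0 and 1 counts (adjusted p = 4.10e-05). Jup, a junction protein, fell from 33.5, 35.9 and 50.1 CPM to 14.8, 21.1 and 6.65 CPM (log2 fold change -1.51, SE 0.32, adjusted p = 0.000631). Mesothelial cells also make keratins and junction proteins, their markers were lower in TKS5 KO as given above, and their part in these counts was not tested.

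Mesenchymal genes of EMT, all 20 of them tested, did not move together. In TKS5 KO, 3 rose, 7 fell and 10 did not pass the test, with a median of -0.10. That is 50% called, beside 44.9% of all genes tested. With library totals as the scaling, 1 was called higher and 9 lower, and with length correction 5 were called higher and 5 lower. Lox, which cross-links collagen, fell from 3337, 3817 and 2789 CPM to 1148, 762 and 979 CPM (log2 fold change -1.78, SE 0.22, adjusted p = 1.54e-06). Fn1, encoding fibronectin, fell from 1126, 1256 and 1271 CPM to 493, 367 and 391 CPM (log2 fold change -1.55, SE 0.21, adjusted p = 3.56e-06), and so did Mmp2, a gelatinase, from 168, 178 and 155 CPM to 63.1, 28.1 and 58.9 CPM (log2 fold change -1.73, SE 0.25, adjusted p = 8.84e-06). Of the 3 that rose, Vim, encoding the intermediate filament vimentin, went from 741, 618 and 845 CPM to 2019, 1854 and 1431 CPM (log2 fold change 1.27, adjusted p = 5.60e-05). Vim was named for its textbook place among EMT genes, after its value was seen.

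**Figure D5:**
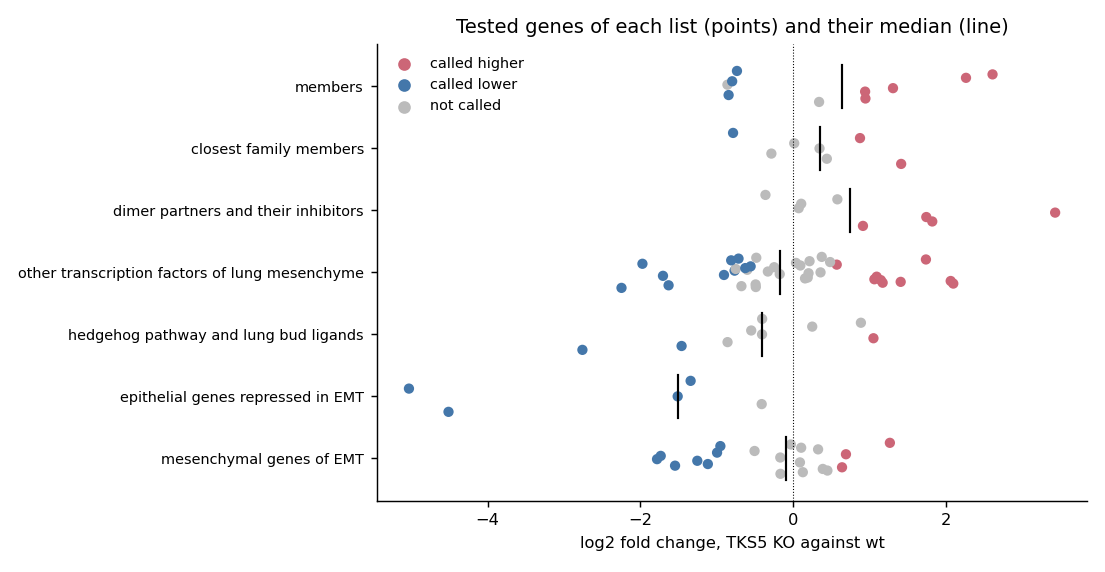
Log2 fold change (horizontal axis, TKS5 KO against wt) of each tested gene in the 10 factors (members) and the 6 other lists, with the median of each list as a line. Points called higher are red, called lower blue and not called grey; the median runs from -1.51 for the epithelial genes to 0.75 for the partners and inhibitors.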

How the data were processed

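RNA of primary mouse LFs exposed to TGF-β1 was sequenced as 3 wt and 3 TKS5 KO Quant-Seq libraries, grouped by the genotype label. The authors trimmed reads with Trim Galore, aligned them to GRCm38 (mm10) with HISAT2 and the remainder with Bowtie2, counted them over the 3′ ends of transcripts with metaseqR2 and summed them per gene. These deposited raw counts were used for all results. The authors also deposited values normalized with EDASeq and rounded, treated here as a score. All 6 columns hold the same sorted values. Options of EDASeq and the strand setting are not given in the sources used here.

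Of 55364 genes listed, 55104 were matched to GENCODE (GRCm38). The counts were tested with edgeR 4.0.16 under R 4.3.3 (filterByExpr, TMM, robust quasi-likelihood fit), and a call needed an adjusted p under 0.05 and a change of 1.2-fold or more. Standard errors and 95% intervals come from that fit, and SDs from the CPM. CPM of single genes and within-library log2 ratios (counts plus 0.5) were compared with exact two-sided permutation tests. The fit was tested on simulated data. Intervals and the limit that a count of 0 allows (3 counts) cover counting error or library spread only. Replicates of a group differed by more than sampling noise.

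The 10 factors, the lists of other genes and the motifs were chosen with earlier results of these data known. The text names the 10 factors, Sh3pxd2a, the 3 tested genes with the smallest adjusted p in each list, and the epithelial genes Cdh1 and Epcam; Cbfb, Id4, Vim, Wnt2, Osr1, Klf4, Ebf1, Hoxb4, Hoxb5, the E-protein genes and the hedgehog genes were added after their values were seen. The marker genes of cell types, sex and strain that are named singly were not picked by a rule set beforehand. Not every list member is reported here.

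The alternatives were DESeq2 1.42.0, RLE, upper-quartile and library-total scaling, the authors' normalized values with limma 3.58.1 on the log2(value + 1) scale, limma-voom, no filter, a filter of 10 counts in every library, no fold threshold, loess corrections for length and GC content (span 0.5, prior count 2), a replicate block and each library left out. The authors' combination of tests was not run. Promoters came from RefSeq (GRCm38.p6). Markers of fibroblasts, leukocytes, endothelium, mesothelium, smooth muscle and pericytes, lung epithelium, sex and strain were counted.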

Additional observations from a re-analysis of the deposited data

How the results depend on the processing

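Over 20 alternatives there were 196 log2 fold changes of the 10 factors. Of these, 162 kept their direction and their side of the threshold, 31 kept the direction and lost the call, 2 gained it and 1 reversed. The alternative without a fold threshold reused the main fit, and 4642 genes were called in both. Its values are therefore kept by design, and it is among the alternatives counted for each factor. The reversed value was Foxf1 with library totals as the scaling (-0.078). That scaling shifted the median over all genes from -0.05 to -0.47, and also reversed Sh3pxd2a (-0.13), which was called higher with length correction (1.01). The number of factors called was 8. It was 6 with DESeq2 and with RLE scaling, and 7 with library totals, with the authors' values and with no filter. It fell to 5 with a minimum of 10 counts in each library (4 factors were then not tested) and to 4 with length correction. It was 5 with length and GC correction, 5 with the replicate block and length correction, and 5 to 7 with 1 library left out. Factors called higher were 5, and were 3 with library totals, 2 with that minimum and 3 with length correction. They were 4 with length and GC correction and with the block and length together, and 4 to 5 with 1 library left out. Factors called lower were 3, and were 4 with library totals and 2 with the authors' values and with no filter. They were 1 with DESeq2, with RLE scaling, with length correction, with length and GC correction and with the block and length together. With 1 library left out they were 1 to 3.

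The libraries share replicate numbers 1 to 3. The correlation of same-numbered deviations was -0.001, -0.064 and 0.082, and only number 3 correlated best with its own number. With 3 libraries a group, this check cannot decide whether the numbers pair the libraries. Under the replicate block, 4668 genes and 8 factors were called (5 higher, 3 lower), as against 4642 genes without it, and no factor's call changed. Of 240 counts over the other lists, 35 moved by over 1.5 times. Twist1, Tcf21, Snai2 and Tbx4 had few counts, and their changes are limited by depth.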
